A study of Mus musculus with 6 samples.

Results

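The cells described here are basal duct cells of the mouse submandibular salivary gland that were high in a score of 4 genes, Krt16, Fhl2, Igf2bp2 and Ccn1. They were taken from a droplet single-cell RNA library of untreated epithelium sorted for Epcam and for high Cd49f (integrin alpha 6), pooled from 3 wild-type female C57BL/6J mice of 8 to 10 weeks. A gate kept barcodes with at least 500 genes, at most 20% mitochondrial UMIs (unique molecular identifiers, which count RNA molecules), at least 2 Krt5 and 5 Krt14 UMIs, fewer than 10 UMIs of 4 smooth muscle genes and fewer than 8 UMIs of 5 cycling genes. Of the 5044 barcodes in the library, 4418 passed the filters on genes and mitochondrial UMIs and 3069 lay in the gate. The score was the mean, over the 4 genes, of the z-score of the log count per 10000 UMIs, and the 461 gate cells in the top 15% were the members, out of 16640 barcodes in the series. Comparisons were made with the other 2608 gate cells. The series also holds libraries of all Epcam-positive cells from untreated mice and from mice whose left gland received 30 Gy and was collected 90 days later, each a pool of 3 female mice of the same strain. The untreated mice are labelled wild-type, and the labels give 8 to 10 weeks for all mice, which cannot be the age at collection of the irradiated ones.

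Basal duct cells line the outer face of the salivary ducts, rest on the basement membrane and carry the keratins Krt5 and Krt14 with Trp63, the transcription factor of stratified and basal epithelia. Krt16 is a keratin that skin and other stratified epithelia raise at wound edges, together with Krt6 and Krt17. Fhl2 is a LIM-domain protein of the actin cytoskeleton and nucleus, Ccn1 (Cyr61) is a secreted matrix protein and a well known target of YAP and TEAD and of serum response factor (SRF), and Igf2bp2 is an RNA-binding protein of the oncofetal IGF2BP family. In epithelial cells that spread or are stretched, filamentous actin, focal adhesions, YAP and SRF are known to be coupled.

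The score genes lie on 4 chromosomes of the GRCm38 (mm10) build. Krt16 is at chr11:100246091-100248902, Fhl2 at chr1:43123071-43198343, Igf2bp2 at chr16:22059009-22163299 and Ccn1 at chr3:145646971-145649985. To set the genes that this account turns on beside the factors that background knowledge ties to them, the 120 bases before the start of 6 of them are shown from the RefSeq promoter table of that build, 5′ to 3′ on the strand of the gene. Capitals mark a TEAD motif (GGAATG or its reverse complement) in Ccn1, a CArG box of SRF in both listed starts of Fhl2 and in the actin genes Actg1 and Cnn2, and an AP-1 motif (TGANTCA) in Plaur and Srxn1, the urokinase receptor and the antioxidant enzyme sulfiredoxin. The table gave no window for Krt16, and no match to the 3 motifs was found in this stretch for Igf2bp2.
Ccn1, chr3:145649986-145650105, minus strand: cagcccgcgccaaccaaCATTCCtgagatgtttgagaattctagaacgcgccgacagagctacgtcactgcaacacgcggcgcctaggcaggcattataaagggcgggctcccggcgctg
Fhl2, chr1:43196762-43196881, minus strand: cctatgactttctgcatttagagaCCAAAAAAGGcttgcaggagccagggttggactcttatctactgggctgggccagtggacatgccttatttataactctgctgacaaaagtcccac
Fhl2, chr1:43163962-43164081, minus strand: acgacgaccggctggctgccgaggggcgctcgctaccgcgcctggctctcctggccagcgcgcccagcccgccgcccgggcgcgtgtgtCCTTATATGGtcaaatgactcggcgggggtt
Actg1, chr11:120348496-120348615, minus strand: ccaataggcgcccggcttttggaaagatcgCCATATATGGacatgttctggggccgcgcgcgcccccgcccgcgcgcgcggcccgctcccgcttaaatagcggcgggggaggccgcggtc
Cnn2, chr10:79988480-79988599, plus strand: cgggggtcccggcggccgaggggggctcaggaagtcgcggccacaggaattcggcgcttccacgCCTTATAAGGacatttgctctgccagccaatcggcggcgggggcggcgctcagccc
Plaur, chr7:24462363-24462482, plus strand: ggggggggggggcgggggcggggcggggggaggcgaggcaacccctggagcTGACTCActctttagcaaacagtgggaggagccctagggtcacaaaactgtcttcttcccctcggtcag
Srxn1, chr2:152105404-152105523, plus strand: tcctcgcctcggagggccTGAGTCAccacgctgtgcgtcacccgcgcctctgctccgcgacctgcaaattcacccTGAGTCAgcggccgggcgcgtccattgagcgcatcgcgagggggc

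Searched on both strands over all 32851 RefSeq promoter windows of 300 bases, the TEAD motif was in 14.7%, the AP-1 motif in 7.81% and the CArG box in 1.63%. Those windows are longer than the 120 bases shown. A match is a description of the sequence and shows no binding, and these genes were picked for display after their values and matches had been seen.

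The score was a continuous range without a separate peak. It ran from -1.24 to 2.27 with the cut at 0.634, and 85 members lay within 0.1 above the cut while 108 other gate cells lay within 0.1 below it. All 4 genes were above the gate mean in 151 members, 3 genes in 262, 2 genes in 45 and 1 gene in 3, and 28 of the other gate cells were above the mean in all 4. The 4 genes were only loosely tied to one another from cell to cell. Across the 3069 gate cells, as a description over cells that share a library, Pearson's r was 0.30 between Fhl2 and Ccn1, 0.25 between Fhl2 and Igf2bp2, 0.20 between Fhl2 and Krt16, 0.12 between Igf2bp2 and Ccn1, and 0.09 for Krt16 with Igf2bp2 and with Ccn1. The score itself had r = 0.21 with the log of the UMI total.

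Members came from all 3 mice, in unequal shares. Mouse 1 had 113 members among 918 gate cells (12.3%, exact binomial 95% interval 10.3% to 14.6%), mouse 2 had 42 of 554 (7.58%, 5.52% to 10.1%) and mouse 3 had 173 of 771 (22.4%, 19.5% to 25.6%). The share in mouse 3 was above those of the other mice beyond counting error, and no group of mice was compared. Another 24 members were hashtag doublets and 109 had no hashtag call; both stay out of every value given per mouse. The median score was -0.0991 in mouse 1, -0.203 in mouse 2 and 0.141 in mouse 3, so the median was highest in mouse 3.

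**Figure D1:**
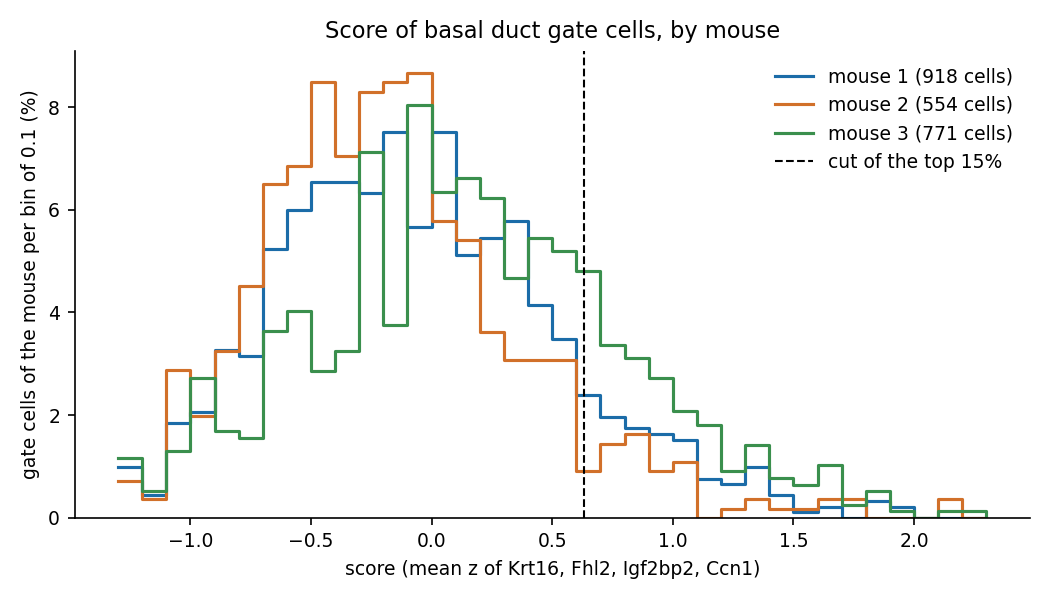
Distribution of the 4-gene score (x axis, mean z-score) over the gate cells of each mouse, as the percent of that mouse's gate cells per bin of 0.1 (y axis); the dashed line is the cut of the top 15% at 0.634. Each mouse has a single broad range with no gap at the cut, and mouse 3 has the largest share above it (22.4%).

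The members' levels of the score genes are a description, because the cells were chosen on them. Krt16 stood at 309, 350 and 327 CPM (UMIs of the gene scaled to a common total per cell set) in the members of mice 1, 2 and 3 and at 28.6, 20.8 and 21.5 CPM in their other gate cells, a mean ratio of 14.3 ± 3.15 (SD, n = 3). Fhl2 stood at 482, 492 and 491 CPM against 145, 119 and 202 CPM (ratio 3.30 ± 0.851). Igf2bp2 stood at 203, 214 and 156 CPM against 37.8, 29.3 and 34.1 CPM (ratio 5.74 ± 1.40). Ccn1 stood at 2603, 3299 and 3839 CPM against 1846, 1983 and 2412 CPM (ratio 1.56 ± 0.131). Krt16 thus set the members apart by the largest ratio and Ccn1 by the smallest. At least 1 Krt16 UMI was found in 69.6% of members and 15.8% of other gate cells. In the whole untreated epithelium, 0.0744% of cells outside the gate had one, at a median depth of 12906 UMIs per cell against 14771 in members and 13890.5 in other gate cells.

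Each score gene also tracked the score made of the other 3. This is a description, because the members' score was chosen with earlier results of these data known. In the top 15% by such a score, Krt16 was 1.52, 4.25 and 1.65 times its level in the rest of the gate in mice 1, 2 and 3 (mean 2.47 ± 1.54). The mean ratio was 1.92 ± 0.298 for Fhl2, 1.83 ± 0.178 for Igf2bp2 and 1.22 ± 0.0724 for Ccn1. All were above 1 in 3 of 3 mice, and all were smaller than with the gene in the score. With the log of the UMI total, r was 0.21 for Ccn1, 0.19 for Fhl2, 0.08 for Krt16 and 0.04 for Igf2bp2. Cells just inside and just outside the cut differed mainly in Krt16. The 50 members nearest the cut had 157 CPM of Krt16, 417 of Fhl2, 114 of Igf2bp2 and 2778 of Ccn1, and the 50 gate cells nearest below it had 62.6, 495, 111 and 3042 CPM.

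Krt16 and Fhl2 were also found elsewhere in the basal sort. Krt16 was at 43.6 ± 25.2 CPM (SD, n = 3 mice) in 85 cycling cells, 36.1 ± 29.0 CPM in 228 cells rich in smooth muscle genes and 32.6 ± 11.4 CPM in 1036 cells below the Krt5 or Krt14 limit. Fhl2 was at 233 ± 56.0, 87.7 ± 35.0 and 167 ± 35.9 CPM in those sets. Both genes were lower in every one of these sets, in every mouse, than in the members.

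**Figure D2:**
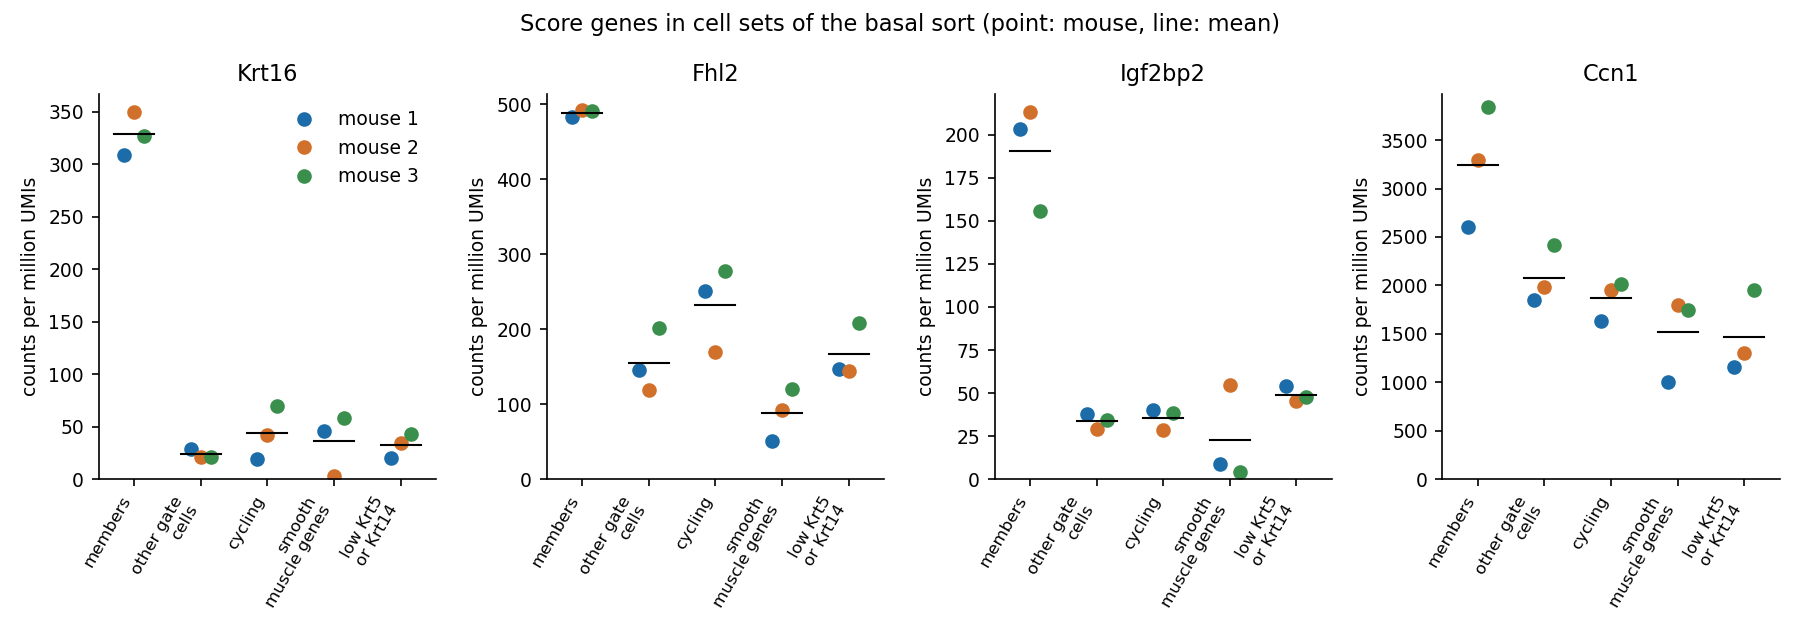
Level of the 4 score genes (y axis, CPM, separate scale per gene) in 5 cell sets of the basal sort (x axis); points are the 3 mice and lines their means. The members were chosen on these genes; Krt16 in them sits between 309 and 350, and no other set exceeds 69.3 in any mouse.

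All 9 basal duct markers were found in the members, but Krt5 and Krt14 were required by the gate and are no check of the label. Of the 7 others, 1 was higher in members than in other gate cells (Krt17), 1 was lower (Trp63) and 5 did not pass the test described below. Dst, a linker of hemidesmosomes, stood at 361, 384 and 295 CPM in members of mice 1, 2 and 3, and the integrin chain Itgb4 at 152, 162 and 118 CPM. Some markers of other cell types were absent. Col1a1, Col1a2, Col3a1, Lum and Pdgfrb of the 7 fibroblast genes, and Ptprc, C1qa and Cd3e of the 8 immune genes, had no UMI in any member. The fibroblast list was not near 0 as a whole, because Dcn, the matrix proteoglycan decorin, stood at 3217, 2265 and 2284 CPM in members and 3144, 2001 and 2435 CPM in other gate cells (log2 0.05 ± 0.05, adjusted p = 0.54). The sum of the 8 immune genes was 4.74 to 7.46 CPM in members and 5.19 to 6.32 in other gate cells, and that of the 7 endothelial genes was 3.91 to 24.2 and 5.63 to 18.0. The 11 myoepithelial genes, some of which the gate limits, summed to 86.9 to 95.7 CPM in members and 88.4 to 96.1 CPM in other gate cells.

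Depth and mitochondrial share were close between members and other gate cells. The median UMI total per cell was 15668, 13951 and 15235 in members and 15363, 13132 and 14680 in other gate cells of mice 1, 2 and 3. Members were deeper in all 3 mice, by 560 ± 257 UMIs (SD, n = 3; exact paired permutation test, two-sided p = 0.25, the smallest that 3 mice allow). The median mitochondrial share was 5.01%, 4.84% and 4.28% in members and 5.07%, 4.51% and 4.39% in other gate cells. Of the member barcodes, 1 also occurred in the whole untreated library, among 15 barcodes that those libraries share.

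Outside the 15 genes that define gate and score, members differed from other gate cells of the same mice across a broad set of genes. Counts were summed per mouse and cell set (585308 to 2816403 UMIs for members, 6932187 to 12811193 for other gate cells) and fitted with edgeR's quasi-likelihood test with the mouse as a block. Of 10755 genes tested, 906 were higher in members (8.42%) and 511 were lower (4.75%) at a Benjamini-Hochberg adjusted p under 0.05. Both cell sets come from the same library and were parted on genes that vary with others from cell to cell, so these calls say which genes moved with the score in 3 mice and are no evidence of a separate cell type. Without mouse 1 the counts were 442 and 180, and without mouse 3 they were 593 and 339.

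Fewer genes were called against the nearer cells. The quintile of gate cells with the lowest scores had a median of 11853.5 UMIs and 2696 genes per cell, against 13893 to 14936 UMIs and 2980.5 to 3098 genes in the other quintiles. When the members were compared only with other gate cells whose score was above the gate median, 165 genes were higher and 99 lower, and 18.1% of the higher calls and 18.4% of the lower calls passed again. All 12 of the higher genes named next passed again, and 6 of the 11 lower ones. That comparison has fewer cells, and fewer genes (9183) were tested in it.

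The 12 genes with the largest rise, among those at 10 CPM or more that rose in all 3 mice, were Srxn1, Rab7b, Ceacam1, S100a3, Plaur, Upp1, Tmem140, Ifi202b, Igfbp3, Fbxo4, Plet1 and Palld. Srxn1, which repairs over-oxidised peroxiredoxins, stood at 69.5, 68.3 and 76.0 CPM in members and 16.9, 19.2 and 20.3 CPM in other gate cells of mice 1, 2 and 3. The groups did not overlap and the rise was 3.88-fold (log2 1.96 ± 0.12 SE, adjusted p = 8.9e-12). Non-overlap in this direction held for 12.2% of all genes tested. Plaur, the receptor that focuses urokinase on the cell surface, stood at 237.5, 138 and 172 CPM against 62.5, 39.7 and 94.9 CPM (log2 1.47 ± 0.13, adjusted p = 1.2e-08). Its ligand Plau rose too, from 10.4, 6.64 and 9.87 CPM to 12.1, 23.9 and 25.9 CPM (log2 1.09 ± 0.23, adjusted p = 0.0015). Plau did not pass against above-median cells (log2 0.70, adjusted p = 0.11).

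Plet1, a surface protein known from placental and epidermal progenitors, stood at 900.0, 666 and 826 CPM in members and 418, 266 and 440 CPM in other gate cells. It rose 2.16-fold (log2 1.11 ± 0.06, adjusted p = 5.4e-12), with no overlap, a pattern that 12.2% of all genes tested had. Ifi202b, an interferon-inducible DNA-binding protein, was at 349, 142 and 354 CPM against 136, 70.1 and 164 CPM (log2 1.21 ± 0.08). Its groups overlapped because mouse 2 was lower in both sets, yet within each mouse the members were higher. Igfbp3, which binds insulin-like growth factors, went from 32.2, 19.6 and 43.7 CPM to 94.3, 22.2 and 83.8 CPM (log2 1.15 ± 0.13, adjusted p = 8.3e-07), with little difference in mouse 2. The adhesion molecule Ceacam1 rose most in mouse 2 instead, where it stood at 32.5 CPM in members and 4.76 CPM in other gate cells (log2 1.55 ± 0.26 over the mice).

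The 11 genes with the largest fall, by the same criteria, were Fos, Irf1, Ccl2, Klf2, Txnip, Hist3h2a, Fosb, Plpp3, Gem, Tifa and Atf3. Fos, an AP-1 subunit induced within minutes of many stimuli, stood at 66.4, 78.6 and 127 CPM in members and 386, 512 and 233 CPM in other gate cells. It was 3.45-fold lower (log2 -1.79 ± 0.18, adjusted p = 7.6e-08) without overlap, a pattern that 12.8% of all genes tested had. Fosb was at 65.8, 85.4 and 87.0 CPM against 180.5, 280 and 183 CPM (log2 -1.32 ± 0.10), and the stress-induced factor Atf3 at 364, 728 and 453 CPM against 1210, 1411 and 882 CPM (log2 -1.20 ± 0.09, adjusted p = 5.7e-10). Irf1, an interferon-response factor, was at 12.6, 27.3 and 11.7 CPM against 60.1, 82.7 and 32.6 CPM (log2 -1.78 ± 0.16), and the thioredoxin-binding protein Txnip at 8.43, 13.7 and 10.3 CPM against 28.3, 41.7 and 22.2 CPM (log2 -1.40 ± 0.19). Fos, Fosb and Atf3 stayed lower against above-median cells (log2 -0.71, -0.55 and -0.71, adjusted p = 0.010, 0.0035 and 2.6e-07). Irf1, Txnip and Klf2 did not pass there (log2 -0.36, -0.26 and -0.31, adjusted p = 0.48, 0.74 and 0.79).

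**Figure D3:**
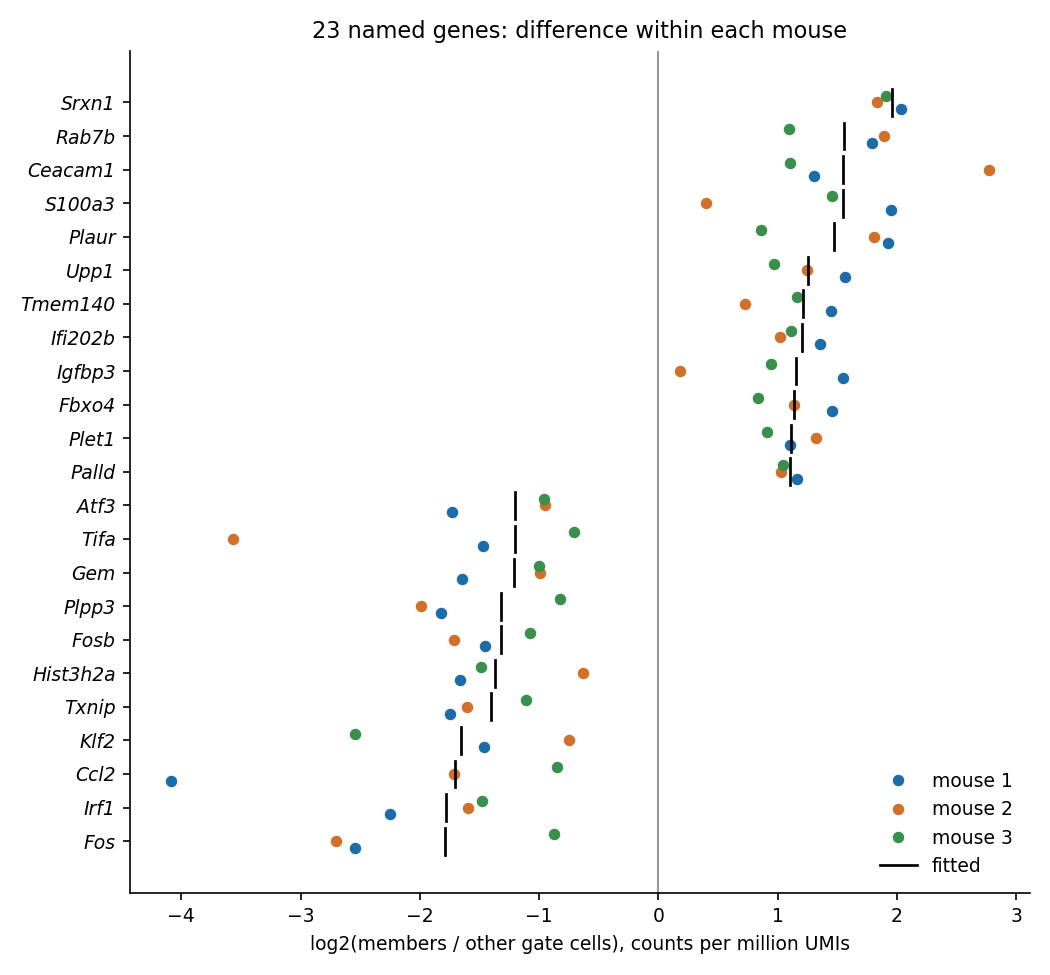
Difference between members and other gate cells (x axis, log2 of the ratio of CPM) for the 23 named genes (y axis); points are the 3 mice and bars the fitted value. Every point of the 12 upper genes lies above 0 and every point of the 11 lower genes below 0, which the naming rule required; Srxn1 has the largest rise (1.96) and Fos the largest fall (-1.79).

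Genes of the actin cytoskeleton and focal adhesions rose together. Of 35 tested, 29 were higher (82.9%, against 8.42% of all genes tested) and none was lower. The median log2 change was 0.50 against -0.01 over all genes. The actin crosslinker Palld stood at 210, 167 and 247 CPM in members and 94.2, 81.9 and 119 CPM in other gate cells (log2 1.10 ± 0.08, adjusted p = 1.8e-10). Cald1, which binds actin and myosin, was at 155, 152 and 162 CPM against 77.0, 59.6 and 92.5 CPM (log2 1.01 ± 0.09). The focal adhesion protein Zyx was at 195, 128 and 162 CPM against 85.5, 73.1 and 95.6 CPM (log2 0.96 ± 0.09), and the membrane-binding Anxa1 at 772, 492 and 598 CPM against 334, 272 and 418 CPM (log2 0.88 ± 0.08). None of these 4, the largest changes of the list at 10 CPM or more, overlapped between members and other gate cells. Over all genes tested, 12.2% lay higher in members without overlap.

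The same direction held for the structural actins, chosen for mention after their values were seen. Actb was at 5520, 4538 and 4974 CPM in members and 3803, 3198 and 3433 CPM in other gate cells (log2 0.54 ± 0.04). Actg1 was at 7996, 7886 and 8497 CPM against 6223, 5821 and 6250 CPM (log2 0.43 ± 0.03), and the calponin Cnn2, whose CArG box is printed above, at 124, 109 and 123 CPM against 68.2, 67.2 and 82.5 CPM (log2 0.73 ± 0.09). Not every member of the list moved: Myl12b, a myosin light chain, stood at 161, 173 and 148 CPM against 168 CPM in each mouse (log2 -0.07 ± 0.08). Against above-median cells, 14 of 34 tested were higher and none lower, with Palld at log2 0.60 (adjusted p = 3.6e-05) and Actb at 0.25 (adjusted p = 2.2e-05). Without mouse 1, 2 or 3, 26, 29 and 27 of the 35 were higher and none was lower.

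Immediate-early genes, which cells transcribe within minutes of a stimulus, mostly went the other way. Of 22 tested, 13 were lower (59.1%, against 4.75% of all genes tested) and 3 higher (13.6%, against 8.42%). The median log2 change was -0.31. Besides Fos, Fosb and Atf3, Egr1 fell from 423, 656 and 342 CPM in other gate cells to 222, 237.5 and 185 CPM in members (log2 -1.03 ± 0.08, adjusted p = 1.2e-09). Klf2, a factor that shear stress is known to raise in endothelium, was at 7.90, 13.7 and 2.84 CPM in members against 21.8, 22.9 and 16.5 CPM (log2 -1.66 ± 0.25). The changes in Jun (log2 -0.22 ± 0.05) and Junb (log2 -0.29 ± 0.06) were small, and for Junb the sign turned against above-median cells (log2 0.02).

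The 3 immediate-early genes that rose, named after their values were seen, were Fosl1, Dusp1 and Klf6. Fosl1, the Fra-1 subunit of AP-1, stood at 329, 275 and 351 CPM in members and 221, 190 and 258 CPM in other gate cells (log2 0.53 ± 0.07, adjusted p = 3.1e-06). Members therefore had lower Fos and Fosb beside higher Fosl1. Against above-median cells 5 of 22 genes were lower and none was higher, and Fosl1 was at log2 0.18 (adjusted p = 0.19). Ccn1 is itself an early response gene, and when it was left out of the score the list still had 12 lower and 3 higher. Dissociation of tissue can induce these genes; no unmanipulated tissue was measured, so how far their level reflects it was not tested.

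**Figure D4:**
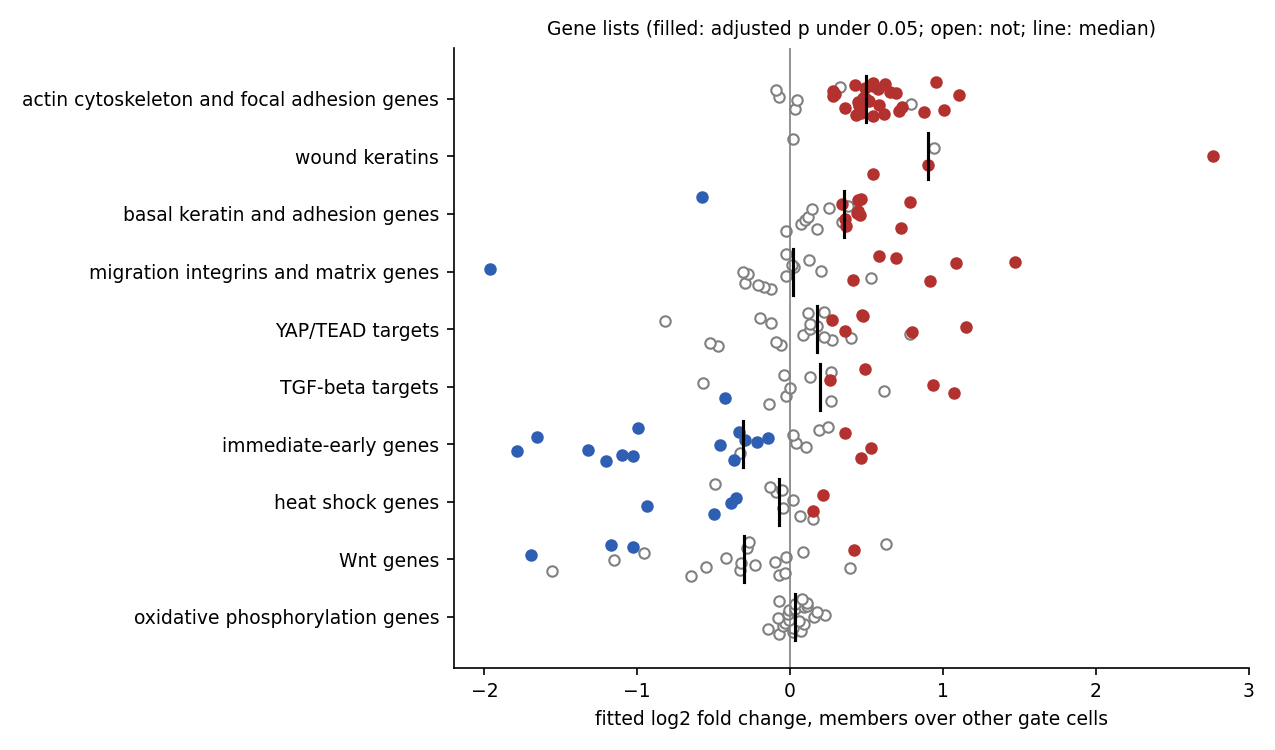
Fitted log2 fold change of members over other gate cells (x axis) for the tested genes of 10 lists (y axis); filled points passed an adjusted p under 0.05 (red higher, blue lower), open points did not, and black bars are medians. The actin and focal adhesion list lies to the right (median 0.50, 29 of 35 higher), the immediate-early list to the left (median -0.31, 13 of 22 lower), and no oxidative phosphorylation gene passed. Over all genes tested, 8.42% were higher and 4.75% lower.

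Some wound keratins other than Krt16 were higher. Of 5 tested, 3 rose (60%, against 8.42% of all genes tested) and none fell. Krt17, an abundant keratin, stood at 3946, 3844 and 4161 CPM in members and 2567, 2683 and 3078 CPM in other gate cells (log2 0.54 ± 0.04, adjusted p = 5.4e-10). Krt75, a keratin of hair follicle and nail bed, stood at 5.27, 17.1 and 8.17 CPM against 1.25, 0.865 and 1.44 CPM (log2 2.77 ± 0.44, adjusted p = 7e-05). Krt75 lay below the mean of 10 CPM that the naming rule asks for, so its large ratio rests on few UMIs. Krt6a was at 103, 76.9 and 50.1 CPM against 34.0, 22.5 and 56.5 CPM (log2 0.90 ± 0.21, adjusted p = 0.0044), and it was higher in mice 1 and 2 and slightly lower in mouse 3. It passed in 11 of 20 settings, while Krt17 passed in 20 of 20 and Krt75 in 19 of 19, and against above-median cells its adjusted p was 0.057.

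Basal keratin, adhesion and hemidesmosome genes rose in part. Of 20 tested, 10 were higher (50%, against 8.42% of all genes tested) and 1 was lower (5%, against 4.75%). The median log2 change was 0.35. The hyaluronan receptor Cd44 was at 77.4, 51.3 and 102 CPM in members and 49.5, 37.2 and 57.9 CPM in other gate cells (log2 0.72 ± 0.10), and the linker plectin, Plec, at 172, 202 and 149.5 CPM against 135, 117 and 118 CPM (log2 0.46 ± 0.09). The integrin chains Itga6, the antigen of the sort, and Itgb1 rose less (log2 0.44 ± 0.07 and 0.45 ± 0.07). Plec, Itga6 and Itgb1 did not pass against above-median cells (log2 0.29, 0.22 and 0.16, adjusted p = 0.093, 0.18 and 0.33). The gene that fell was Trp63, at 22.1, 29.0 and 17.0 CPM in members against 35.4, 37.9 and 25.9 CPM (log2 -0.58 ± 0.15, adjusted p = 0.0091). It was lower in each mouse though the groups overlapped, and against above-median cells it did not pass (log2 -0.20, adjusted p = 0.72).

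Among YAP and TEAD targets other than Ccn1, 6 of 23 tested rose (26.1%, against 8.42% of all genes tested) and none fell. The median log2 change was 0.17. The clearest was F3, tissue factor, the starter of blood coagulation, at 1778, 1811 and 2627 CPM in members and 1091, 1001 and 1517 CPM in other gate cells (log2 0.80 ± 0.05, adjusted p = 5.4e-12). Of the 23, 16 had a positive change. The largest negative changes at 10 CPM or more were in Arhgef17 and Ajuba (log2 -0.52 and -0.47). Both were lower in members of all 3 mice but did not pass (adjusted p = 0.10 and 0.17). Tgfb2 and Tead1 were chosen for mention after their values were seen. The growth factor gene Tgfb2 rose from 272, 266 and 277 CPM to 370, 422 and 345 CPM (log2 0.47 ± 0.07), and Tead1 itself had log2 0.47 ± 0.09. Tgfb2 and Tead1 did not pass against above-median cells (log2 0.24 and 0.23, adjusted p = 0.056 and 0.26). Ccn2, the closest relative of Ccn1 on the list and like it a textbook target, did not pass. It stood at 91.6, 178 and 244 CPM in members against 112, 158 and 164 CPM in other gate cells, lower in mouse 1 and higher in mice 2 and 3 (log2 0.22 ± 0.11, adjusted p = 0.20). Its sign turned without mouse 3 (log2 -0.11), with Ccn1 out of the score (-0.07) and against above-median cells (-0.03).

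Among 20 migration, integrin and matrix genes, 6 rose (30%, against 8.42% of all genes tested) and 1 fell; besides Plaur and Plau, the protease inhibitor Timp3 went from 192, 183.5 and 163 CPM to 252, 316 and 243 CPM (log2 0.58 ± 0.08, adjusted p = 5.1e-06). Among 14 TGF-beta targets, 4 rose (28.6%) and 1 fell. Inhba, the activin subunit, stood at 24.2, 39.3 and 54.0 CPM in members against 16.5, 11.7 and 24.1 CPM (log2 1.07 ± 0.16, adjusted p = 3.1e-05), and Pmepa1, a feedback inhibitor, at 362, 248 and 378 CPM against 165, 137 and 226 CPM (log2 0.93 ± 0.08). The inhibitor of differentiation Id2 was the one that fell (log2 -0.43 ± 0.11, adjusted p = 0.011), and its sign turned against above-median cells (0.11).

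Of 10 genes tested from a list of epithelial plasticity regulators and epithelial or mesenchymal markers, 6 rose (60%, against 8.42% of all genes tested). Another 2 fell (20%, against 4.75%). The 6 include the epithelial genes Cdh1 and Epcam, so the count is no measure of plasticity. Of the 16 listed genes, Cdh2, Prrx1, Snai1, Twist1, Twist2 and Zeb1 were too low to be tested. The duct and progenitor factor Sox9 stood at 427, 260 and 512 CPM in members and 269.5, 194 and 284 CPM in other gate cells (log2 0.70 ± 0.07, adjusted p = 1e-07). E-cadherin, Cdh1, was at 409, 389.5 and 406 CPM against 303, 248 and 288 CPM, and Epcam at 2095, 2219 and 2191 CPM against 1470, 1464 and 1608 CPM, both at log2 0.53. Vim, the mesenchymal filament vimentin, was lower, at 13.2, 11.96 and 9.94 CPM against 21.2, 15.7 and 19.2 CPM (log2 -0.75 ± 0.19, adjusted p = 0.0093). It did not pass against above-median cells (log2 -0.61, adjusted p = 0.16).

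Luminal duct keratins and a tight junction gene were higher as well. Of 9 luminal duct markers, 4 rose and 2 fell, where 8.42% and 4.75% of all genes tested did. The markers summed to 6800, 7299 and 6737 CPM in members against 5242, 4910 and 5465 CPM. Cldn4 stood at 1974, 2142 and 2012 CPM in members and 1091, 1023 and 1210 CPM in other gate cells (log2 0.90 ± 0.05, adjusted p = 5.4e-12). The simple keratins Krt8 and Krt18 rose less (log2 0.35 ± 0.07 and 0.33 ± 0.05). Krt8 and Krt18 did not pass against above-median cells (log2 0.12 and 0.13, adjusted p = 0.46 and 0.19). Duox2 and its maturation factor Duoxa2, oxidase genes of differentiated luminal duct cells, were called lower on 2 UMIs each in all members with a mouse call. The part of luminal RNA or of doublets in these levels was not tested beyond the Scrublet score, which separated known hashtag doublets poorly (area under the curve 0.594) and whose median was 0.0706, 0.0887 and 0.0613 in members and 0.0819, 0.0741 and 0.0741 in other gate cells.

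No gene passed among 23 of oxidative phosphorylation (median log2 0.03) or 6 of class II antigen presentation, where Cd74 stood at 244, 155 and 213 CPM in members against 243.5, 239 and 230 CPM in other gate cells (log2 -0.16 ± 0.08, adjusted p = 0.25). Among 17 replication genes 1 was lower (5.88%, against 4.75% of all genes tested) and none higher. Pcna did not pass, at 92.7, 85.4 and 83.4 CPM against 97.4, 105 and 103 CPM (log2 -0.19 ± 0.09, adjusted p = 0.19). The gate removed cells rich in cycling genes, so this says nothing about how often such cells divide. Among 22 Wnt genes, 1 was higher and 3 were lower (13.6%, against 4.75% of all genes tested). Wnt10a stood at 99.5, 111 and 76.7 CPM in members against 75.4, 69.96 and 63.6 CPM (log2 0.42 ± 0.10, adjusted p = 0.0037), and Wnt6 at 8.43, 3.42 and 6.75 CPM against 21.7, 19.04 and 10.9 CPM (log2 -1.17 ± 0.24, adjusted p = 0.0014). Wnt10a and Wnt6 did not pass against above-median cells (log2 0.15 and -0.89, adjusted p = 0.59 and 0.078).

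Of 14 heat shock genes, 4 were lower (28.6%, against 4.75% of all genes tested) and 2 higher (14.3%, against 8.42%). Hspa1a, an inducible Hsp70, was at 38.4, 42.7 and 52.9 CPM in members and 60.3, 104 and 109 CPM in other gate cells (log2 -0.94 ± 0.11, adjusted p = 1.5e-06). Of 15 amino acid and integrated stress response genes, 5 were higher (33.3%) and none was lower. Nupr1, a stress-induced chromatin protein, stood at 1688, 2098 and 1917 CPM against 1129, 959 and 1092 CPM (log2 0.85 ± 0.06, adjusted p = 5.2e-10). Of 14 p53 targets, 3 were higher (21.4%) and 1 lower (7.14%). The cell cycle inhibitor Cdkn1a was at 529, 492 and 585 CPM in members against 354, 333 and 411 CPM (log2 0.57 ± 0.06, adjusted p = 1.2e-07). Bbc3 was the lower gene, at 15.3, 30.8 and 17.4 CPM against 32.8, 32.0 and 26.1 CPM (log2 -0.65 ± 0.17, adjusted p = 0.010). Bbc3 did not pass against above-median cells (log2 -0.09, adjusted p = 0.91).

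Inflammatory genes had no common direction. Of 13 cytokines and chemokines tested, 2 were higher (15.4%, against 8.42% of all genes tested) and 3 lower (23.1%, against 4.75%). Cxcl10 fell from 1124, 1703 and 768 CPM in other gate cells to 701, 1225 and 468 CPM in members (log2 -0.61 ± 0.05, adjusted p = 8.3e-09), and Ccl2 was at 1.05, 6.83 and 6.75 CPM in members against 17.9, 22.4 and 12.2 CPM (log2 -1.71 ± 0.32). Cxcl10 did not pass against above-median cells (log2 -0.25, adjusted p = 0.077). The neutrophil attractant Cxcl1 was higher in members, at 309, 296 and 375 CPM against 226, 270.5 and 217 CPM (log2 0.52 ± 0.08, adjusted p = 9.2e-05). It did not rise steadily with the score. Its mean over 3 mice was 282, 263, 201, 215 and 295 CPM from the lowest to the highest quintile of gate cells. In mouse 2 the lowest quintile (373 CPM) was above the highest (276 CPM).

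Of the 12 named genes that were higher, 2 (Palld and Plet1) rose at every step of the score in all 3 mice, and of the 11 that were lower, 3 (Txnip, Fosb and Atf3) fell at every step in all 3. When all gate cells were cut into quintiles by score, the mean of Palld over 3 mice was 50.2, 67.1, 101, 149 and 196 CPM from the lowest to the highest quintile, and that of Krt17 was 1599, 2425, 3039, 3356 and 3908 CPM. Krt17, chosen for mention after its values were seen, also rose at every step in 3 of 3 mice. Atf3 fell from 1749 through 1349, 1051 and 779 to 520 CPM. Fos dropped from 822 to 413 CPM over the first step and reached 89.9 CPM in the highest quintile. For Srxn1 the mean was 6.31, 11.9, 22.6, 28.1 and 64.1 CPM, with the widest step at the top.

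**Figure D5:**
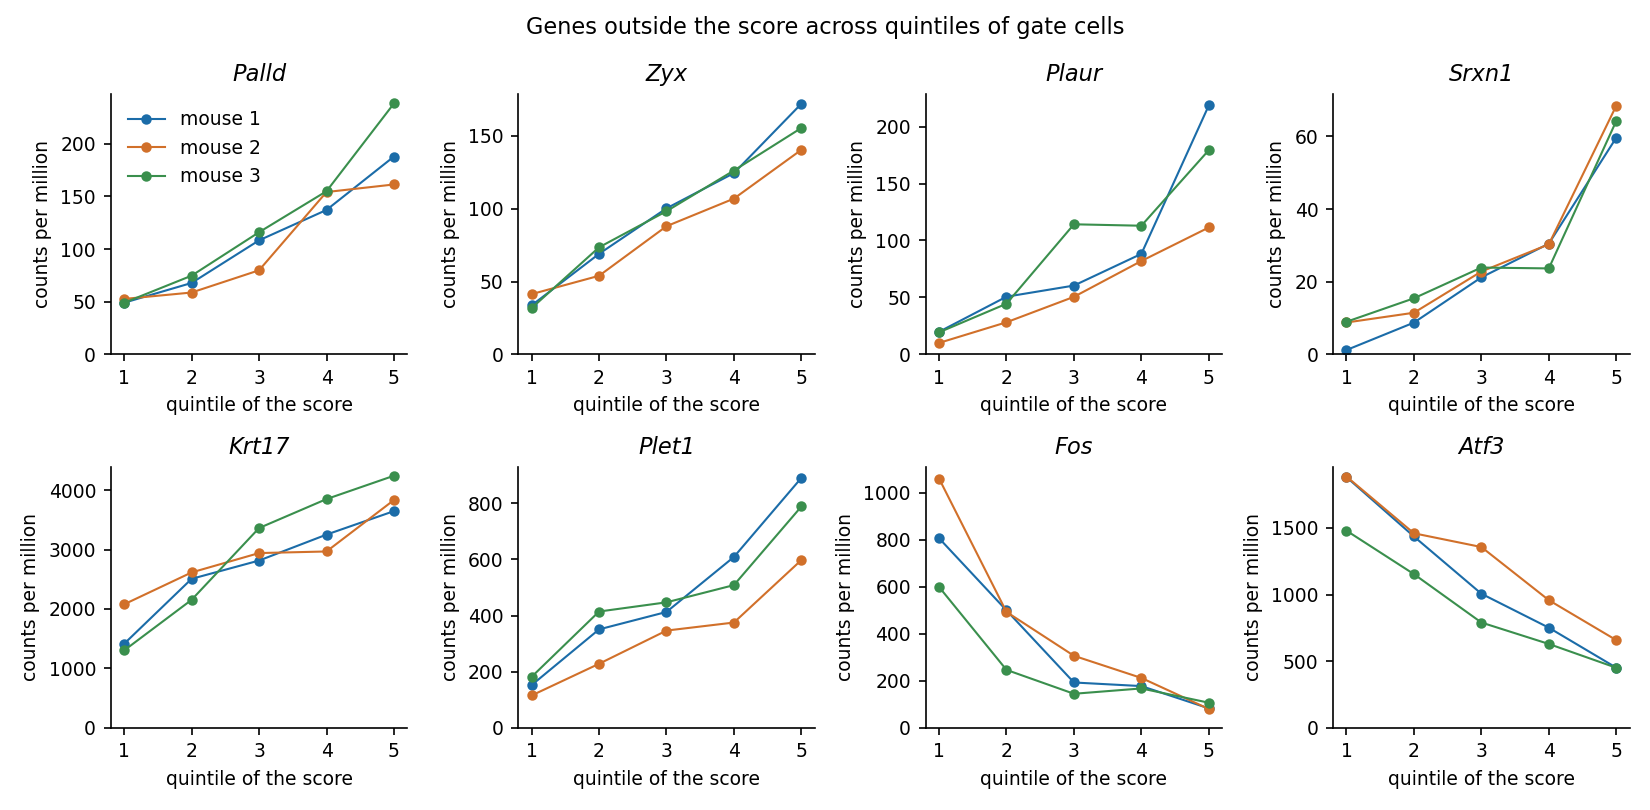
Level of 8 genes outside the score (y axis, CPM, from 0) in quintiles of gate cells by score from lowest to highest (x axis), with 1 line per mouse. Palld, Zyx and Krt17 climb over the whole range, Srxn1 rises mainly in the highest quintile (28.1 to 64.1), and Fos and Atf3 fall.

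The whole-epithelium libraries, which the cut was not set on, held few gate cells. In the untreated library 60 cells met the gate and 7 of them were above the same cut (11.7%, exact 95% interval 4.82% to 22.6%). In the irradiated library 24 met it and 5 were above (20.8%, 7.13% to 42.2%). The intervals overlap, each condition is 1 library, and no difference between untreated and irradiated glands was tested. Gate cells of the untreated library had 68.9 CPM of Krt16 and those of the irradiated library 166 CPM, while cells outside the gate had 0.0349 and 2.38 CPM.

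In those few cells the sums of the actin and immediate-early lists went the same way as in the basal sort, with no replicate check. The 36 actin and focal adhesion genes summed to 32492 CPM (Poisson 95% interval 31376 to 33636, counting error only) in the 7 untreated cells above the cut and 19202 CPM (18891 to 19517) in the 53 below it. In the irradiated library they summed to 30139 CPM (28764 to 31562) in 5 cells and 24752 CPM (24292 to 25218) in 19. The 22 immediate-early genes summed to 8077 CPM above against 16135 CPM below the cut in the untreated library and to 8616 against 17960 CPM in the irradiated one. The ratio of above to below was 1.69 and 1.22 for the actin list and 0.501 and 0.480 for the immediate-early list, against 1.41 and 0.854 in the basal sort; differences between libraries were not tested. The 23 oxidative phosphorylation genes had ratios of 0.977, 1.20 and 0.994 in the untreated, irradiated and basal libraries, so in the irradiated cells they were raised by about as much as the actin list.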

How the data were processed

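The authors deposited unnormalized UMI counts for each cell, by gene and by hashtag; the submitters' processing notes name Cell Ranger 6.1.2 and mm10. Members and gene lists were chosen with earlier results of these data known. Mice were called from the 3 hashtag antibodies with HTODemux (Seurat 5.3.0, positive quantile 0.99, 5 starting clusters); 22.6% of filtered barcodes had no call. The hashtags mark separate mice, so members and other gate cells pair by mouse, and the mouse was the block. Counts were summed per mouse and cell set and tested with edgeR 4.0.16 (filterByExpr, TMM, quasi-likelihood; R 4.3.3), with Benjamini-Hochberg adjustment over 10755 genes; the 15 rule genes were left out. At an unadjusted p under 0.05 there were 2701 genes. Tested on simulated counts of 10766 genes, the fit called 86% of genes raised 2-fold, 48% raised 1.5-fold, 60% lowered 2-fold, 30% lowered 1.5-fold and 9 of 10566 unchanged ones. All simulated sums shared a mean profile and a common dispersion, without mouse effects or a choice of members by score. The rate of false calls in the real contrast was therefore not measured. CPM are UMIs scaled to a common total per sum. Named were the 12 genes per direction with the largest log2 change among those called, of 1 sign in 3 mice and at 10 CPM or more, without gene models, mitochondrial and ribosomal protein genes, and up to 4 per list; some genes that the rule names are not reported here. Some other genes of the lists were chosen for mention after their values were seen. Exact binomial and Poisson intervals cover counting error only. No cells were clustered; hashtag doublets were left out of the sums, and Scrublet (scanpy 1.11.5) was an alternative. Protein sequences were not used here.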

Additional observations from a re-analysis of the deposited data

How the results depend on the processing

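Higher and lower calls numbered 397 and 134 with DESeq2 (all among the main calls), 305 and 109 without the mouse as replicate block, 599 and 335 with mice called by hashtag share, 529 and 275 with the top 10% as members, 587 and 264 with Fhl2 out of the score, and 165 and 99 against other gate cells above the median score, an alternative added after seeing the data. Leaving out 1 mouse gave 442 to 798 higher and 180 to 431 lower. The other alternatives (DESeq2's size factors in edgeR, no count filter, stricter cell filter, top 25%, depth strata, thinning to 5000 UMIs, Krt16, Igf2bp2 or Ccn1 out of the score, high Scrublet scores left out) kept both counts within 1.5 times. Member shares by hashtag share were 10.2%, 6.998% and 21.6%. With each gene left out of its own score the ratios were 2.47 (Krt16), 1.92 (Fhl2), 1.83 (Igf2bp2) and 1.22 (Ccn1). Signs turned for Junb (0.020) and Id2 (0.11) against other gate cells above the median score, and for Ccn2 (-0.026 there, -0.11 to 0.44 with 1 mouse left out, -0.074 with Ccn1 out of the score); the cause was not tested. With 42 members in mouse 2, genes near 10 CPM rest on few UMIs there.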

Other observations

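Some genes outside the lists led the contrast without a shared theme. Rab7b, a GTPase of late endosomes, stood at 35.3, 17.1 and 16.3 CPM in members of mice 1, 2 and 3 and 10.2, 4.62 and 7.65 CPM in other gate cells (edgeR log2 1.55 ± 0.20, adjusted p = 3.6e-06). Upp1, which salvages uridine, was at 23.7, 20.5 and 22.4 CPM against 8.04, 8.66 and 11.4 CPM (log2 1.25 ± 0.19). The calcium-binding S100a3, known from the hair cuticle, was at 36.9, 13.7 and 38.3 CPM against 9.52, 10.4 and 14.0 CPM (log2 1.55 ± 0.18). The lipid phosphatase Plpp3 was lower, at 8.95, 8.54 and 12.8 CPM against 31.6, 34.0 and 22.6 CPM (log2 -1.32 ± 0.20).

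Granular duct genes were unequal between mice. Klk1, a kallikrein of granular ducts, stood at 81.1, 99.1 and 77.4 CPM in members and 84.0, 535 and 118 CPM in other gate cells, so its lower call (log2 -0.89 ± 0.20, adjusted p = 0.0027) followed mainly from the other gate cells of mouse 2. The summed list of 8 granular duct genes was 608 CPM in that set and 108 to 142 CPM in the other gate cells of mice 1 and 3.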
